A study of Mus musculus with 16 samples.

Results

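The SLC25 mitochondrial carriers were described here as the genes whose symbols begin with Slc25a and a number, which leaves out the uncoupling proteins that carry the name Ucp. The rule found 46 genes, all 46 in both tables, among 17539 genes listed for quadriceps and 18000 for brown adipose tissue. The mice were C57BL/6 males of 10 weeks, housed at room temperature. The mutants were homozygous for uORF-TAA, an allele of Ppargc1a that the labels name without describing how it was made, and the wild-type controls were their littermates. Ppargc1a encodes PGC-1alpha, a transcriptional coactivator of mitochondrial genes. Each tissue had 4 wild-type and 4 uORF-TAA mRNA libraries, 16 in all, and the labels name no Cre, promoter or treatment. Whether quadriceps and brown fat were taken from one set of mice is not stated. Values per library were not analysed here, so each level is the authors' mean over the 8 libraries of a tissue. Mean normalized counts summed to 21.04 M (1 M being 1000000) per library in quadriceps and 12.8 M in brown fat.

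SLC25 proteins are nuclear-encoded carriers that move metabolites across the inner membrane of mitochondria, which is otherwise closed to charged molecules. They exchange ADP for ATP, bring in phosphate, acylcarnitines, amino acids and cofactors, and return citrate and malate to the cytosol. In muscle they chiefly serve ATP export and the malate-aspartate shuttle. In brown fat the same proteins work beside uncoupling protein 1 (Ucp1), which turns the proton gradient into heat, and citrate export feeds lipid synthesis. A few members lie elsewhere, such as Slc25a17 in peroxisomes and Slc25a46 in the outer mitochondrial membrane.

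The sequences before the start sites are shown for 6 carriers that are named among the levels described below. Slc25a4 and Slc25a5 are ADP/ATP carriers of opposite tissue pattern, Slc25a3 and Slc25a20 are among the most abundant members, and Slc25a12 and Slc25a1 have the largest level ratios towards quadriceps and towards brown fat among members with an average mean count of at least 50. Each run is the 250 bases before the RefSeq start, 5′ to 3′ on the gene's strand, in build GRCm38.p6, which is not the mm9 build of the submitters' processing notes. Capitals mark matches, on either strand, to any of 7 motifs: the ERR half-site AAGGTCA, the NRF-1 motif (GCGCA and GCGC with any 1 base between), the GABP (NRF-2) motif CCGGAAG, the MEF2 motif (CTA and TAG with any 4 bases between), the GC box GGGCGG, the CCAAT box CCAAT and the TATA box TATAAA.
Slc25a4, chr8:46211063-46211312, - strand: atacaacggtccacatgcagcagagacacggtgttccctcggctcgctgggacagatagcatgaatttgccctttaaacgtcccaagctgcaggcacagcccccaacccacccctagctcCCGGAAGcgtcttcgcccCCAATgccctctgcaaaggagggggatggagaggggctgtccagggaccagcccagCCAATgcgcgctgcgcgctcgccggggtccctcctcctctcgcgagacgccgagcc
Slc25a5, chrX:36795347-36795596, + strand: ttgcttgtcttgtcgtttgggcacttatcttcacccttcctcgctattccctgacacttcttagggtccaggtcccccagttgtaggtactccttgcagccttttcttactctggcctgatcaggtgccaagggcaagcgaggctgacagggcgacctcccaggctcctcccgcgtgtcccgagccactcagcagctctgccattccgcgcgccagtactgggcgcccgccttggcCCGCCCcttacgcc
Slc25a3, chr10:91123968-91124217, - strand: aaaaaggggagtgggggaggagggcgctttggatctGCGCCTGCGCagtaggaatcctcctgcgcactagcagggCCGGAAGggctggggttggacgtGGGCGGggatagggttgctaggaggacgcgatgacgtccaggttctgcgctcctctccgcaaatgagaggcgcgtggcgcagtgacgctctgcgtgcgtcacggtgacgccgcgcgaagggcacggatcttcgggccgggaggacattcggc
Slc25a20, chr9:108661886-108662135, + strand: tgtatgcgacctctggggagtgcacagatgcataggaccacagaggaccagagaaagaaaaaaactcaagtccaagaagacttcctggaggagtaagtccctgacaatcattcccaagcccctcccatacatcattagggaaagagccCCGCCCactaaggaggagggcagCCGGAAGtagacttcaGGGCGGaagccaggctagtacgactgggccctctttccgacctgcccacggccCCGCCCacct
Slc25a12, chr2:71367756-71368005, - strand: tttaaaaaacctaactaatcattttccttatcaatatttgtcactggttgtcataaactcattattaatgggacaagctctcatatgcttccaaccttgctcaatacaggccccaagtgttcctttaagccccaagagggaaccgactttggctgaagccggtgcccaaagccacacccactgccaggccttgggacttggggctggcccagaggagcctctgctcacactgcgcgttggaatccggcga
Slc25a1, chr16:17928220-17928469, - strand: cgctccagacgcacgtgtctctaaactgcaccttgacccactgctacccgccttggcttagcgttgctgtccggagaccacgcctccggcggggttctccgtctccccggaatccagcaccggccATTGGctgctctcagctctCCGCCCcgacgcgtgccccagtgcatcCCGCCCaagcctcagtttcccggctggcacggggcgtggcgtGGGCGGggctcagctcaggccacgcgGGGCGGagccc

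Slc25a4 held the GABP motif 130 to 124 bases before its start, Slc25a3 at 175 to 169 and Slc25a20 at 79 to 73, all on the gene's strand. By level these 3 carriers ranked 1, 2 and 5 in quadriceps and 2, 3 and 1 in brown fat. The other carriers with the motif, Slc25a17 and Slc25a38, ranked 16 and 20 in quadriceps and 10 and 22 in brown fat. They stood at 19.5 and 14.0 ppm in quadriceps and at 153 and 21.3 ppm in brown fat (ppm, parts in 1000000 of the summed level of all genes). Slc25a3 also held the NRF-1 motif, 214 to 205 bases before its start. The window of Slc25a12 held none of the 7 motifs, and that of Slc25a1 held the GC box at 4 places. Of the members, 35 had a window in the RefSeq table, and 11 were not in it, among them Slc25a2, Slc25a26, Slc25a27, Slc25a32, Slc25a35, Slc25a37, Slc25a41, Slc25a44, Slc25a46 and Slc25a51. The GABP motif stood in 5 of the 35 windows (14.3%), against 7.05% of 27025 windows of the same length over all genes. The GC box stood in 24 of 35 (68.6%, against 32.9%), the CCAAT box in 16 (45.7%, against 34.5%) and the TATA box in 1 (2.86%, against 12.97%). The ERR half-site was found in 1 window, that of Slc25a34 (2.86%, against 4.05%), the MEF2 motif in 1 (2.86%, against 3.23%) and the NRF-1 motif in 2 (5.71%, against 3.86%). The median GC content of the windows was 58.4% in the members and 52.0% over all genes. A match is a description of letters, and no factor binding was measured.

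Levels were compared between genes as the mean normalized count per kb of transcript, scaled to a sum of 1000000 over all genes of a table and given as ppm. The carriers made up 4276 ppm in quadriceps (0.428% of all) and 5392 ppm in brown fat (0.539%). In quadriceps Slc25a4 alone held 57.7% of that sum and the 5 highest carriers 86.4%. In brown fat the highest carrier, Slc25a20, held 17.4% and the 5 highest 56.7%. The carrier mRNA of muscle was thus concentrated in 1 gene, and that of brown fat was spread over several. The median carrier stood at 12.7 ppm in quadriceps and 19.9 ppm in brown fat, against 4.11 and 6.73 ppm for the median of all genes. The highest 10% of genes by level held 5 of the 46 carriers in quadriceps and 15 of the 46 in brown fat.

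In quadriceps the order of the 10 highest levels was Slc25a4 at 2466 ppm, Slc25a3 at 794, Slc25a11 at 180, Slc25a12 at 139, Slc25a20 at 115, Slc25a28 at 59.1, Slc25a46 at 50.3, Slc25a51 at 45.4, Slc25a5 at 42.8 and Slc25a44 at 41.7 ppm. In brown fat the order of the 7 highest was Slc25a20 at 937 ppm, Slc25a4 at 612, Slc25a3 at 567, Slc25a5 at 502, Slc25a39 at 442, Slc25a1 at 294 and Slc25a51 at 289 ppm. The 10 highest carriers of each tissue shared 6 genes. Neighbours in either order were not tested, since the spread of a level over libraries was not analysed here. With coding length as the divisor, 8 of the 10 remained in each tissue. Over the 46 carriers the quadriceps and brown fat levels correlated with a Spearman's rho of 0.828, against 0.870 over all genes in both tables, each across genes.

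**Figure D1:**
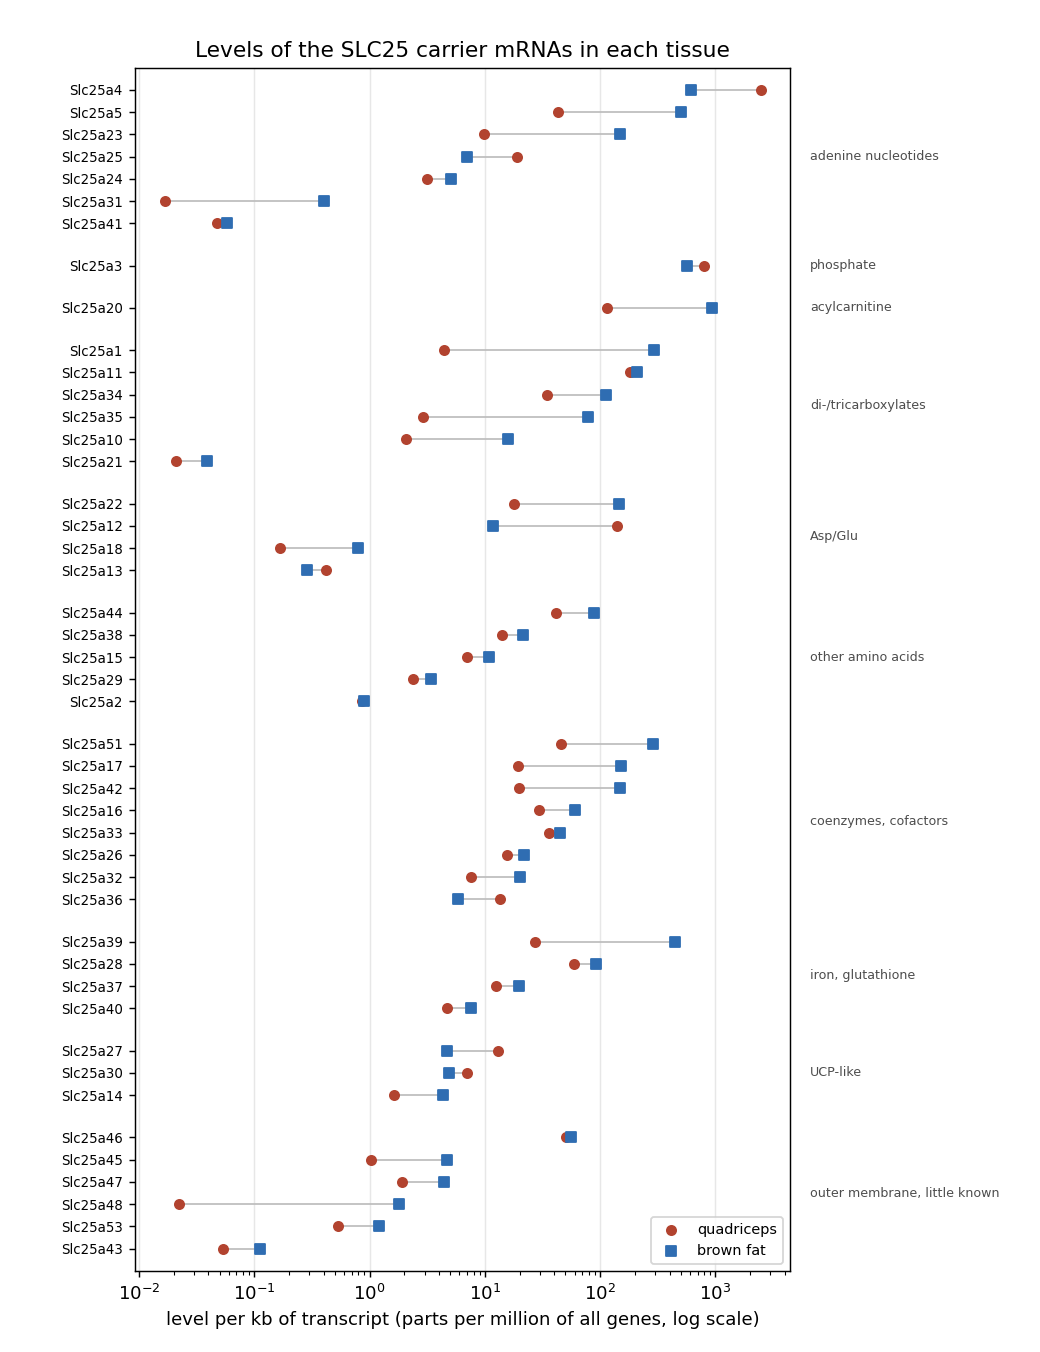
Level of each of 45 SLC25 carriers per kb of transcript, in ppm on a log axis, in quadriceps (red circles) and brown fat (blue squares), grouped by role, each point the mean over 8 libraries without an error. Slc25a4 lies at 2466 ppm in quadriceps and 612 in brown fat, and Slc25a1 at 4.38 and 294 ppm.

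The tables were normalized separately by the authors, so levels are set side by side across tissues and no test was made. The median gene with an average mean count of at least 50 was itself 1.56-fold higher in brown fat, which sets the scale for single ratios. On the ppm scale 38 of the 46 carriers were higher in brown fat and 8 in quadriceps. Of the 33 with an average mean count of at least 50, 26 were higher in brown fat (78.8%), against 66.6% of all such genes. The side of 9 carriers turned with the scaling, namely Slc25a2, Slc25a11, Slc25a26, Slc25a28, Slc25a29, Slc25a33, Slc25a38, Slc25a41 and Slc25a46. The other carriers, 29 higher in brown fat and 8 higher in quadriceps, kept their side under each scaling tried. Of the same 33 carriers, 12 were over 4-fold higher in brown fat (36.4%), against 18.5% of all such genes, and 2 were over 4-fold higher in quadriceps (6.06%, against 7.5%). Relative to the median gene the counts were 12 (36.4%, against 10.7%) and 4 (12.1%, against 11.8%).

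The ADP/ATP carriers export the ATP made in mitochondria and are the targets of several classical inhibitors of respiration. Slc25a4, the form of heart and muscle, had an authors' mean normalized count of 36342 in quadriceps and 7060 in brown fat. Slc25a5, the form of many other tissues, had 407 and 3728. Slc25a4 made up 98.3% of the pair's summed level in quadriceps and 55.0% in brown fat. Brown fat thus held both forms at similar levels. RefSeq lists a pseudogene of Slc25a5, Slc25a5-ps, so the count of Slc25a5 is uncertain where reads match both. Slc25a31, the form of germ cells, was near the floor of detection with mean counts of 0.274 and 5.17. The phosphate carrier Slc25a3, which supplies the phosphate for ATP synthesis, was at 794 ppm in quadriceps and 567 in brown fat, the pair of tissues differing by 1.40-fold.

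The calcium-regulated ATP-Mg/phosphate carriers adjust the adenine nucleotide pool of the matrix, and their forms differed in tissue pattern. Slc25a23 was at 9.84 ppm in quadriceps and 150 ppm in brown fat, a ratio of 15.2. Slc25a25 went the other way, with 19.1 ppm in quadriceps and 6.97 in brown fat, 2.75-fold higher in muscle. Slc25a24 was low in both at 3.17 and 5.07 ppm, and Slc25a41 had mean counts under 1, at 0.441 and 0.423. Slc25a23 was thus the leading form in brown fat and Slc25a25 in quadriceps.

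Slc25a20 carries acylcarnitines into the matrix for fatty acid oxidation and was the most abundant carrier of brown fat. Its authors' mean normalized count was 1573 in quadriceps and 10014 in brown fat, and its level was 8.14-fold higher in brown fat. Cpt2, the enzyme that receives the acylcarnitines in the matrix, stood at 70.8 ppm in quadriceps and 419 in brown fat. Cpt2 and the partner enzymes Acly, Got1, Got2, Mdh1 and Mdh2 given below were chosen after their values were seen.

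The di- and tricarboxylate carriers move citrate, malate and oxoglutarate. All 6 were higher in brown fat on the ppm scale, against 66.6% of all genes with an average mean count of at least 50. Slc25a11 changed side relative to the median gene, and the 6 include the thinly counted Slc25a21. Slc25a1, the citrate carrier whose export of citrate supplies lipid synthesis, had a mean normalized count of 55.9 in quadriceps and 2940 in brown fat. Its level was 67.2-fold higher in brown fat, the largest ratio among carriers with an average mean count of at least 50. Acly, which splits the exported citrate in the cytosol, was at 9.18 ppm in quadriceps and 152 in brown fat. Slc25a35, an orphan carrier, had a ratio of 26.9 with mean counts of 40.8 and 858, and the related Slc25a34 one of 3.24. The dicarboxylate carrier Slc25a10 was 7.75-fold higher in brown fat at low levels, 2.07 and 16.01 ppm. Slc25a11, the oxoglutarate/malate carrier of the malate-aspartate shuttle, was at 180 and 207 ppm. Slc25a21 had mean counts of 0.422 and 0.610, too few for a ratio.

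The other exchanger of the malate-aspartate shuttle is the aspartate/glutamate carrier, present in muscle mainly as Slc25a12 (aralar). Slc25a12 had a mean normalized count of 6753 in quadriceps and 444 in brown fat, and its level was 11.9-fold higher in quadriceps. That was the largest ratio towards muscle of any carrier. Slc25a13 (citrin), the form of liver, had mean counts of 9.99 and 5.33. The shuttle's aminotransferases leaned the same way, with Got1 at 674 ppm in quadriceps and 80.0 in brown fat and Got2 at 203 and 32.1 ppm. The malate dehydrogenases leaned the other way, with Mdh1 at 463 and 901 ppm and Mdh2 at 715 and 1701 ppm. The glutamate carrier Slc25a22 was 8.11-fold higher in brown fat, at 145 against 17.9 ppm, and its relative Slc25a18 had mean counts of 2.44 and 9.09. The shuttle's exchangers therefore differed, one near-equal between the tissues and one high in muscle.

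On the ppm scale 8 of 9 cofactor carriers measured were higher in brown fat, against 66.6% of all genes with an average mean count of at least 50. Their median log2 ratio was 1.40, against 0.64 for all such genes, and Slc25a26 and Slc25a33 turned with the scaling. The NAD carrier Slc25a51 was at 45.4 ppm in quadriceps and 289 in brown fat, and the CoA carrier Slc25a42 at 19.7 and 148. The peroxisomal carrier Slc25a17 was at 19.5 and 153 ppm, and Slc25a16, linked to CoA transport, at 29.3 and 60.5. The folate and FAD carrier Slc25a32 was at 7.60 and 20.1 ppm. The pyrimidine nucleotide carriers split, with Slc25a36 2.31-fold higher in quadriceps and Slc25a33 at 36.2 and 44.7 ppm. The S-adenosylmethionine carrier Slc25a26 was at 15.6 and 22.0 ppm. Slc25a52 was not analysed here.

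Among carriers for glutathione and iron, Slc25a39, which brings glutathione into the matrix, was 16.2-fold higher in brown fat at 27.3 against 442 ppm. Its relative Slc25a40 was at 4.66 and 7.61 ppm, so Slc25a39 exceeded it by 5.85-fold in quadriceps and 58.1-fold in brown fat. The mitoferrins, which import iron for heme and iron-sulfur clusters, kept their proportion, Slc25a28 being 4.75-fold above Slc25a37 in quadriceps and 4.64-fold in brown fat. Of the remaining amino acid carriers, Slc25a44, which takes up branched-chain amino acids, was at 41.7 and 88.3 ppm. The glycine carrier Slc25a38 was at 14.0 and 21.3 ppm, and the ornithine carrier Slc25a15 at 6.98 and 10.9. Slc25a29, a carrier of basic amino acids, was at 2.39 and 3.43 ppm, and Slc25a2 was under 1 ppm in both tissues.

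The members most like uncoupling proteins were each below Ucp1, Ucp2 and Ucp3 in brown fat, while in quadriceps all 3 were below Ucp3 and above Ucp1. Slc25a27 (Ucp4) was at 12.98 ppm in quadriceps and 4.69 in brown fat, Slc25a30 at 7.02 and 4.88, and Slc25a14 (Ucp5) at 1.63 and 4.30. Ucp1 was at 0.535 and 4851 ppm, Ucp2 at 10.1 and 57.8, and Ucp3 at 621 and 162. Slc25a46, which shapes mitochondria from their outer membrane, was at 50.3 and 55.3 ppm. Slc25a45 had mean counts of 19.4 and 69.5, Slc25a47, a carrier known from liver, of 23.0 and 41.6, and Slc25a53 of 10.5 and 18.6. Slc25a48 had mean counts of 0.572 and 36.5, and Slc25a43 of 0.452 and 0.749. Slc25a54 was not analysed here.

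In the RefSeq gene order, 3 pairs of members had no protein-coding gene between them, and 2 of the pairs had very unequal levels. Slc25a43 lies next to Slc25a5 and Slc25a41 next to Slc25a23, the first of each pair having mean counts under 1 and the second of 3728 and 3018 in brown fat. The pair of Slc25a29 and Slc25a47 was low in both tissues. The libraries were stranded by the labels, and how reads on neighbouring or overlapping genes were assigned is not given in the sources used here.

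Fibre markers were detected in brown fat and general adipocyte markers in quadriceps. The 8 brown adipocyte markers were mixed in specificity. In quadriceps Ucp1, the defining one, was at 0.011% of its brown fat level, Elovl3 at 0.1003%, Cidea at 0.124% and Dio2 at 1.01%. Cox8b was at 15.5%, Cpt1b at 32.7% and Ppargc1a at 52.9%, and Pdk4 was higher in quadriceps, at 343%. In brown fat the 10 skeletal muscle fibre markers summed to 9743 ppm against 213718 in quadriceps, and single markers lay between 2.55% (Myh4) and 20.2% (Myh2) of their quadriceps level, with a median of 5.05%. Slc25a12 in brown fat was at 8.41% of its quadriceps level, inside that range, with only Mb (19.1%) and Myh2 (20.2%) above it. The aminotransferases Got1, at 11.9%, and Got2, at 15.8%, were inside that range too. Slc25a4 was at 24.8%, above all 10 markers. In quadriceps the 7 general adipocyte markers summed to 1041 ppm against 41086 in brown fat, and 6 of them lay between 1.41% and 2.66% of their brown fat level. The other, Lep, had mean counts of 3.61 and 7.76. Slc25a1 in quadriceps was at 1.49% of its brown fat level, inside the range of the 6, while Slc25a35 was at 3.72%, Slc25a39 at 6.17%, Slc25a5 at 8.54% and Slc25a20 at 12.3%, above it. The part of these cells in the levels of Slc25a12, Got1, Got2 and Slc25a1 was not tested. In such bulk samples fewer cells of a type and less RNA per cell cannot be told apart.

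**Figure D2:**
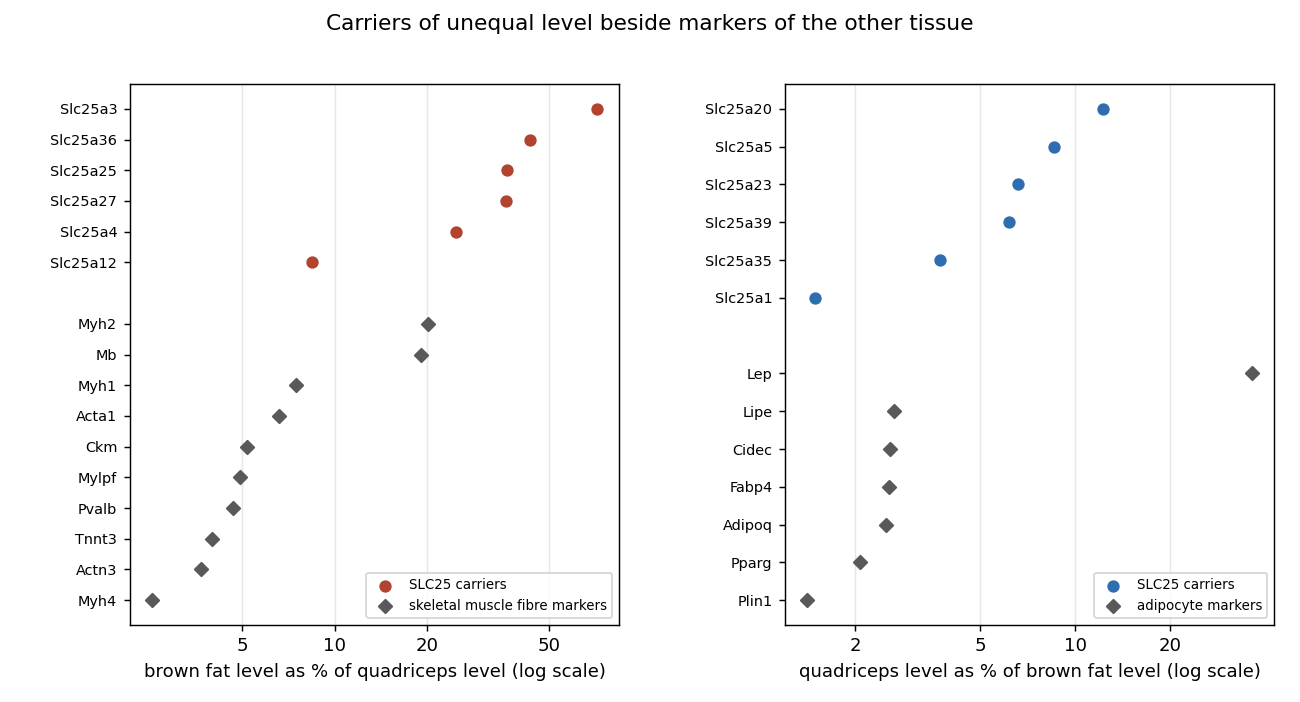
Left, the brown fat level as a percent of the quadriceps level for 6 carriers of higher level in quadriceps (red circles) and 10 muscle fibre markers (grey diamonds). Right, the quadriceps level as a percent of the brown fat level for 6 carriers (blue circles) and 7 adipocyte markers. Both axes are log scales. Slc25a12 at 8.41% and Slc25a1 at 1.49% lie within the markers' range, with only Mb and Myh2 of the fibre markers above Slc25a12.

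The comparison of genotypes addressed expression under the uORF-TAA allele in each tissue. No carrier passed the test between genotypes in either tissue. A positive log2 fold change here means a higher estimate in uORF-TAA than in wild type. No header states the numerator, so the first genotype in each table's name was taken as it, and a wrong reading would turn every sign of that tissue. Errors are standard errors (SE) of the authors' deposited table. By DESeq2's adjusted p under 0.05, 0 of 46 carriers were called in quadriceps, against 0 of 17521 genes (0%). At an unadjusted p under 0.05 there were also 0 of 46, against 2% of all genes (0.942% higher and 1.06% lower). An adjusted p was deposited for all 46 carriers in quadriceps, as for 100% of genes, but for 30 in brown fat, where 51.6% of genes have one. In brown fat 0 of these 30 carriers were called by DESeq2, against 0.0863% of 9272 genes. At an unadjusted p under 0.05 there were 2 of 46 (4.35%), against 2.07% of 17973 genes. These were 1 higher (against 0.918%) and 1 lower (against 1.15%).

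In quadriceps, the log2 fold changes of the carriers in the authors' deposited table ran from -0.17 (Slc25a24) to 0.19 (Slc25a47). Of the 46, 27 were above 0 (58.7%), against 51.7% of all genes. Their median was 0.020, against 0.0024 for all genes tested. Among the 31 carriers with a mean of at least 50, 15 were above 0 and the median was -0.0050, against 50.9% of genes and a median of 0.0021. The 95% interval of every carrier held 0, and the outermost bounds were -0.42 and 0.45 on the log2 scale. The deposited estimates and their SE behave as shrunken ones, so these bounds do not exclude larger changes. The 5 of smallest p are values and not changes. Slc25a33 stood at -0.16 ± 0.10 (SE), p = 0.116 and adjusted p = 1.00 in the authors' deposited table. Slc25a27 was at -0.15 ± 0.10, Slc25a25 at 0.11 ± 0.08, Slc25a28 at -0.16 ± 0.11 and Slc25a47 at 0.19 ± 0.13 (SE) in the authors' deposited table. Slc25a47 had a mean count of only 23.0.

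The most abundant carriers of muscle had small estimates. In the authors' deposited table for quadriceps, Slc25a4 had a log2 fold change of 0.07 ± 0.09 (SE), with an interval from -0.10 to 0.24. Slc25a3 was at 0.02 ± 0.09, Slc25a12 at 0.09 ± 0.09, Slc25a11 at 0.06 ± 0.12 and Slc25a20 at 0.06 ± 0.11 (SE) in the authors' deposited table. All 5 estimates were above 0, and each was within about 1 SE of 0. All 4 aspartate/glutamate and glutamate carriers were above 0, against 51.7% of all genes, from 0.0035 to 0.11 in the authors' deposited table. Both ends of that range, Slc25a18 and Slc25a13, had mean counts under 10, at 2.44 and 9.99. In brown fat 1 of the same 4 was above 0 and 3 were below. Of the 4 iron and glutathione carriers 3 were below 0, down to -0.16 for Slc25a28 in the authors' deposited table. In brown fat 2 of these 4 were below 0 and 2 above.

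In brown fat the log2 fold changes ran from -0.32 (Slc25a30) to 0.24 (Slc25a25) in the authors' deposited table. Of the 46, 26 were above 0 (56.5%), against 51.2% of all genes, and the median was 0.023, against 0.0015. With a mean of at least 50 there were 20 of 34 above 0 (58.8%), against 53.6% of genes. Slc25a30, a carrier related to uncoupling proteins, stood lowest, at a log2 fold change of -0.32 ± 0.12 (SE; p = 0.00633) in the authors' deposited table. Its mean count was 105. It has no deposited adjusted p, and over all genes with a p-value its Benjamini-Hochberg value was 1.00. Slc25a37 (mitoferrin-1), the iron importer of red cell precursors, had 0.22 ± 0.10 (SE), p = 0.0192 and adjusted p = 1.00 in the authors' deposited table. Its mean count was 493. For the other mitoferrin, Slc25a28, the authors' deposited table gives -0.02 ± 0.09 (SE). Slc25a25 was at 0.24 ± 0.12, Slc25a32 at -0.19 ± 0.13 and Slc25a31 at 0.09 ± 0.07 (SE) in the authors' deposited table. None of these was past the threshold after adjustment, and Slc25a31 rests on a mean count of 5.17.

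Estimates were also small for the carriers most abundant in brown fat. For Slc25a20 the authors' deposited table gives 0.02 ± 0.11 (SE), with an interval from -0.19 to 0.24. Slc25a4 was at -0.02 ± 0.13, Slc25a3 at -0.01 ± 0.10, Slc25a5 at 0.07 ± 0.10 and Slc25a39 at 0.07 ± 0.10 (SE) in the authors' deposited table. Of the 6 di- and tricarboxylate carriers 4 were above 0, against 51.2% of all genes. Slc25a1 was at 0.14 ± 0.12, Slc25a35 at 0.13 ± 0.11 and Slc25a34 at 0.13 ± 0.12 (SE) in the authors' deposited table. Slc25a11 was at 0.02 ± 0.11, Slc25a10 at -0.03 ± 0.12 and Slc25a21 at -0.0030 ± 0.030 (SE) in the authors' deposited table. Slc25a21 had a mean count of only 0.610. Of the 7 adenine nucleotide carriers 6 were above 0, against 51.2% of all genes, the exception being Slc25a4. Of these 6, Slc25a31 and Slc25a41 had mean counts of only 5.17 and 0.423. In quadriceps 4 of the same 7 were above 0 and 3 below. Over all carriers the outermost bounds of the 95% intervals were 0.48, for Slc25a25, and -0.55, for Slc25a30. As in quadriceps, these bounds do not exclude larger changes.

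**Figure D3:**
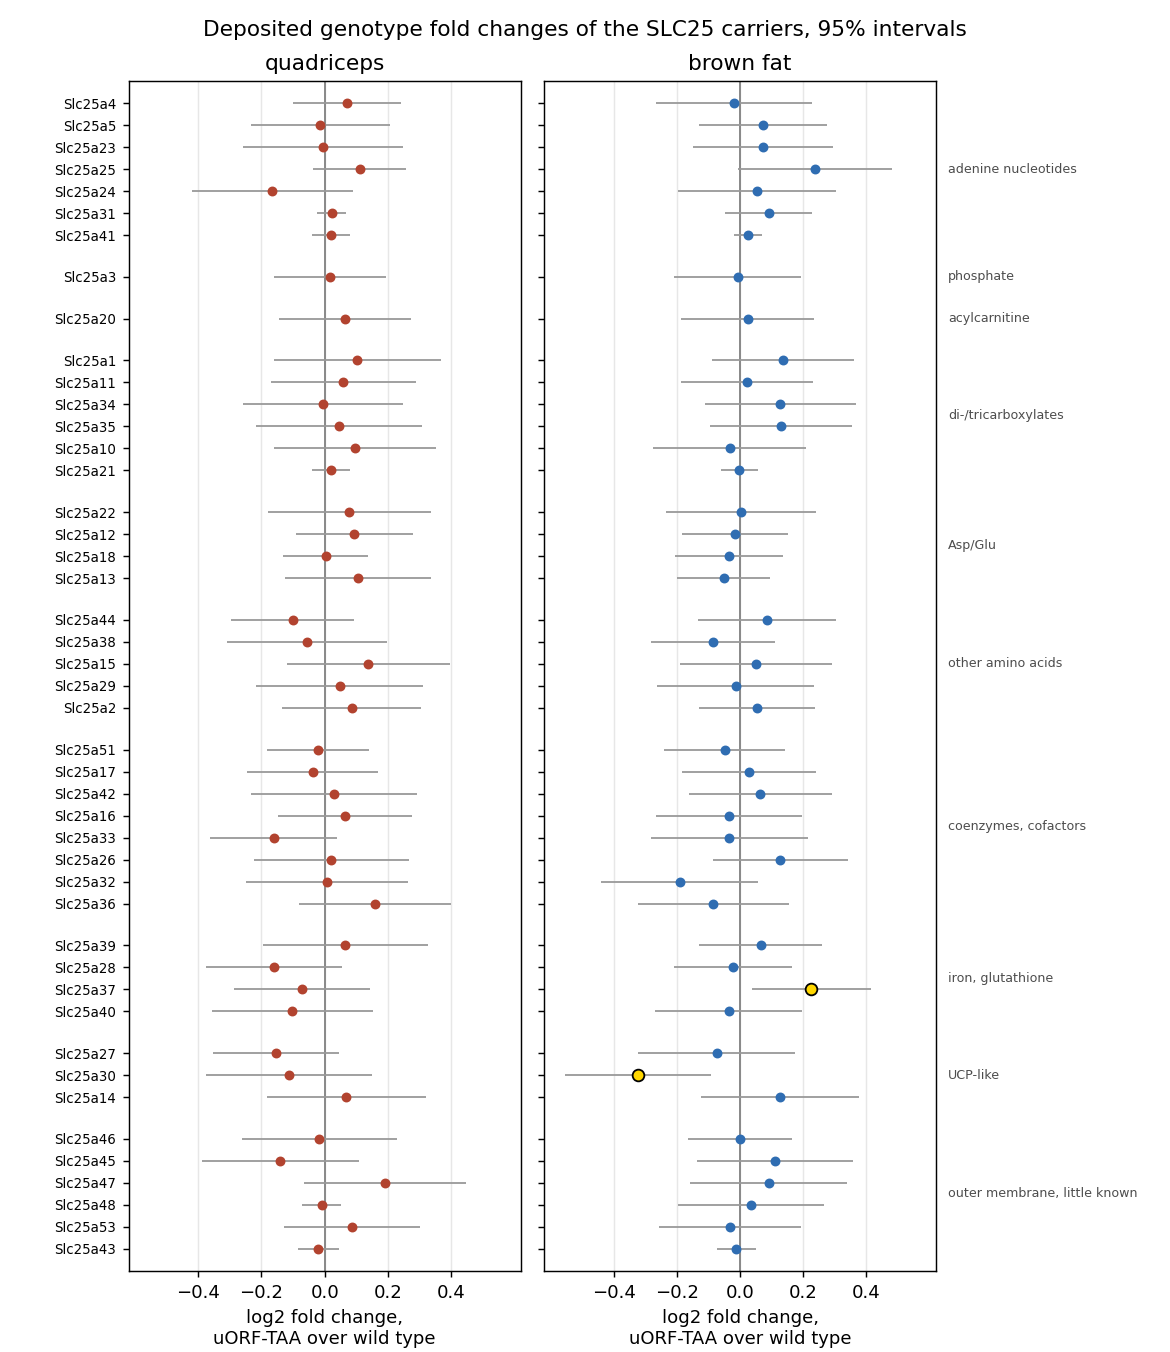
Log2 fold change of each of 45 carriers, uORF-TAA over wild type, from the authors' deposited tables, in quadriceps (left) and brown fat (right), with 95% intervals as bars. Gold points have an unadjusted p under 0.05, which only Slc25a30 (-0.32) and Slc25a37 (0.22) in brown fat have, and 0 carriers passed the adjusted test.

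Members at the limit of counting account for the shortest bars. In quadriceps 8 carriers and in brown fat 7 had a mean count under 10, and their SE fell to 0.023 in both tissues. The deposited estimates behave as shrunken ones, so an SE this small at such counts is no sign of precision.

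The genotype effect was compared between tissues gene by gene. No carrier differed (0 of 46 at an adjusted p under 0.05, against 0 of 16844 genes, 0%, with a two-sided normal p for quadriceps less brown fat, from DESeq2's deposited estimates). At an unadjusted p under 0.05, 1 of 46 did, against 1.16% of genes. This was Slc25a37, whose log2 fold change in quadriceps less that in brown fat was -0.30 ± 0.15 (SE), with an adjusted p of 1.00. It was at -0.07 ± 0.11 (SE) in quadriceps and 0.22 ± 0.10 in brown fat in the authors' deposited table. The carriers shared their sign in 23 of 46 cases, 15 above 0 in both tissues and 8 below. These include carriers with mean counts under 10. The share over all genes was not computed here, so whether the carriers depart from it was not tested. Slc25a25 was above 0 in both and Slc25a30 below 0 in both, at 0.11 and 0.24 and at -0.11 and -0.32 in the authors' deposited table. Spearman's rho of the fold changes was 0.136 over the 46 carriers and 0.202 over the 33 with an average mean count of at least 50. It was likewise not computed over all genes here. Taking the opposite numerator for brown fat, again 0 carriers differed.

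**Figure D4:**
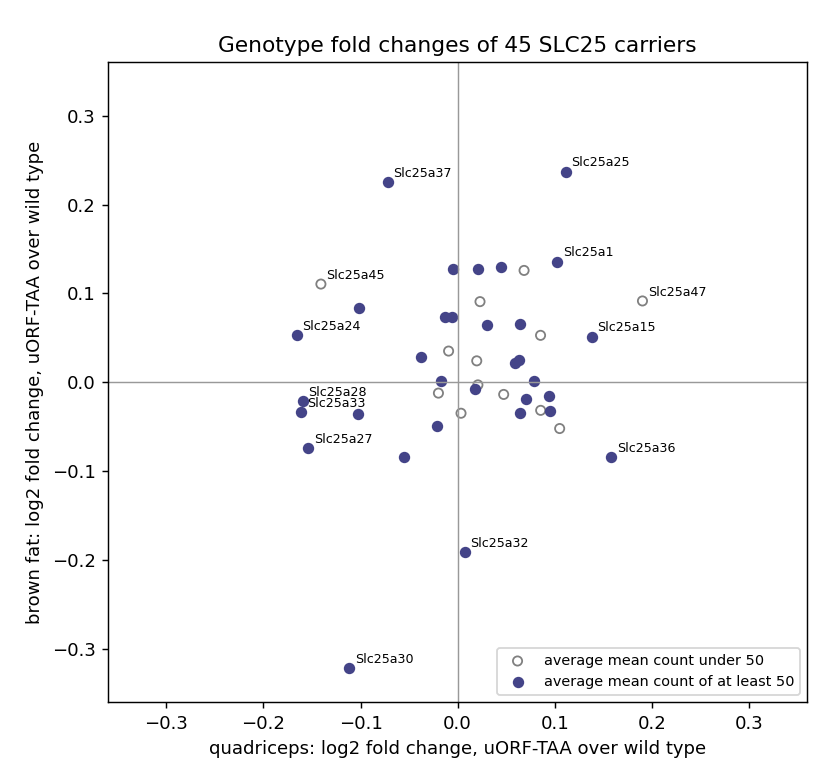
Log2 fold change of 45 carriers in quadriceps (horizontal) and brown fat (vertical), uORF-TAA over wild type, with carriers of an average mean count under 50 as open circles. Of the 45 points, 15 lie above 0 in both tissues, 8 below 0 in both and the others on opposite sides.

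Other genes of mitochondrial transport did not pass the test either. Among the family relatives under other names (Ucp1, Ucp2, Ucp3, Mtch1 and Mtch2), 0 of 5 passed in either tissue. In brown fat Ucp3 stood at 0.33 ± 0.08 (SE, log2 scale; adjusted p = 0.0744) and Ucp1 at 0.08 ± 0.13 in the authors' deposited table. Of other inner membrane transporters, 0 of 16 measured passed in either tissue, 10 being above 0 in quadriceps and 11 in brown fat (the medians of the deposited log2 fold changes were 0.033 and 0.043). Over all genes tested, 51.7% were above 0 in quadriceps and 51.2% in brown fat, with medians of 0.0024 and 0.0015. Of the outer membrane pores 0 of 4 passed, of the proteins that import carriers 0 of 11 measured, and of the enzymes coupled to carriers 0 of 11, again in both tissues. In brown fat 9 of the 11 coupled enzymes were above 0 (against 51.2% of all genes), with a median of 0.064 in the authors' deposited table. In quadriceps 5 of 11 were above 0 (against 51.7%), with a median of -0.0068 in the authors' deposited table. At an unadjusted p under 0.05 these lists held 1 gene in all, Ucp3 in brown fat. The share of all genes at that p was 2% in quadriceps and 2.07% in brown fat.

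Ppargc1a itself had a log2 fold change of 0.06 in quadriceps and 0.0016 in brown fat in the authors' deposited table. In brown fat 0 of the 10 muscle fibre markers had an unadjusted p under 0.05, and 0 of the 7 adipocyte markers did so in either tissue. Of the 8 brown adipocyte markers 7 were above 0 in brown fat (against 51.2% of all genes), and 1 had an unadjusted p under 0.05 (against 0.918% of all genes higher at that p). This was Dio2, at 0.48 ± 0.12 (SE, log2 scale; adjusted p = 0.0990) in the authors' deposited table, and in quadriceps 0 of the 8 had one. In quadriceps 3 of 5 smooth muscle and pericyte markers were lower at an unadjusted p under 0.05, against 1.06% of all genes, and 0 carriers had one. The part of these cells in the carriers' values was not tested.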

How the data were processed

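RNA of 16 libraries, 4 per genotype in each of 2 tissues, was compared by the authors with one table per tissue. STAR 2.5.1b, mm9 and DESeq2 1.10.1 are named in the submitters' processing notes, without their roles, and for the annotation and read counter the sources used here give none. Columns, per the file headers, are a mean normalized count per gene, used as a signal over the 8 libraries, a log2 fold change with its standard error on the log2 scale, a Wald score, and a p-value with an adjusted p-value, all deposited by the authors. The fold changes behave as shrunken estimates, which no header states. The sign of the brown fat table, named with wild type first, was turned, an assumption on both tables. The DESeq2 test of the authors was the main test. The design text counts 4 mice per genotype. Each p-value sets an estimate against an SE taken from the deposited ones, and no spread between libraries was computed here.

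Levels are mean counts per kb of the principal transcript (GENCODE M21, the longest if several), scaled to 1000000 per table. A length was found for 99.0% of genes in each tissue. Differences between tissues were tested with a two-sided normal p (scipy 1.17.1) and Benjamini-Hochberg adjustment, after a trial on simulated data, treating tissues as independent. The trial drew normal errors of the deposited SE without shrinkage, so it does not show how the test performs on these estimates. Every member may be named, and listed genes by smallest p unless stated otherwise. Members and lists were chosen with earlier results of these data known. Intervals are 95% on the deposited SE. Promoter windows and gene order came from RefSeq (GRCm38.p6), with the first listed window per gene. Values of 1 member are not reported here, and it is left out of the plots, though the counts include it.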

Additional observations from a re-analysis of the deposited data

How the results depend on the processing

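The counts of 0 carriers past the adjusted test held in both tissues at an adjusted p of 0.1, with adjustment over all genes with a p-value, and with adjustment restricted to means of 10 or more. The difference between tissues also stayed at 0 carriers in each setting tried. In quadriceps the carriers above 0 were 15 of 31, in place of 27 of 46, once a mean of at least 50 was asked for, and their median changed sign from 0.020 to -0.0050. Between tissues, the median log2 ratio of carrier levels, brown fat over quadriceps, was 1.06 over the totals of all genes, 0.55 with totals over the lower 99% of levels, and 0.42 relative to the median gene. These medians cover all 46 carriers, while the median gene was taken over genes with an average mean count of at least 50. On the ppm scale the 33 carriers with such a mean had a median log2 ratio of 0.71, against 0.64 for all such genes. Relative to the median gene 4 carriers in place of 2 were over 4-fold higher in quadriceps, the added ones being Slc25a25 and Slc25a27. Centring on the median gene and the merged exon length were chosen after seeing the data. No paired analysis was possible because the files give each comparison as a whole, without values per library, and leaving out single replicates was not run for the same reason. Members with mean counts under 10 are too thinly counted for a genotype difference to be seen.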
